A study of Mus musculus with 5 samples.

Results

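The stretches of the mouse genome where binding sites of the transcription factor PU.1 lie closest together were examined in dendritic cells, by chromatin immunoprecipitation and sequencing (ChIP-seq). Windows with 1000 or more counts in the input library were left out, windows at most 100 bp apart were merged into regions, and regions with gaps of at most 12500 bp were chained. A chain of 10 or more regions is called a dense cluster. There were 661 dense clusters among 28138 chains (2.35%), and they held 8869 of 67237 regions (13.2%). The clusters were thus chosen by the positions of the windows the authors deposited, each of which held at least 33 counts summed over the 5 libraries. The presence and number of regions in a cluster are therefore given as a description, without a test. The rule did not use the contrast between cell types, although its results were known when the rule was set. How the authors chose the windows is not stated, so whether the contrast entered there is unknown. In a sum over libraries the conventional dendritic cells weigh more. Their libraries held 9881243 and 10345955 counts in the windows kept, against 7282573 and 5656601 for plasmacytoid ones. Which regions joined a cluster may thus depend on cell type, and this was not tested.

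Plasmacytoid dendritic cells (pDCs) and conventional ones (cDCs) both came from Flt3L culture of a strain labelled C56BL/6, with no genetic change or further treatment given in the labels. Each cell type had 2 biological replicates precipitated with the PU.1 antibody T-20, and 1 input library without antibody came from cDCs. The labels give no sorting, subset or purity for either cell type. Signal is the sum of window counts per 1000000 (CPM), scaled with TMM factors. Log2 folds are pDC minus cDC, given ± their standard error, with n = 2 libraries per cell type. Genome positions refer to mm10.

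PU.1, an ETS factor made from the gene Spi1, binds purine-rich sites around a GGAA core and is needed for the development of macrophages, B cells and dendritic cells. It opens chromatin at the distal elements it binds and, at composite sites, binds together with IRF4 or IRF8. Long stretches with many sites of a lineage factor often overlap the super-enhancers of genes used by that lineage, although no enhancer mark was measured here. cDCs are the main antigen-presenting cells for naive T cells, whereas pDCs are known for type I interferon and depend on the E protein TCF4.

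Only promoter sequence was at hand, so the sequences shown are promoters within dense clusters, each from 250 bases before to 50 after the gene start (RefSeq, GRCm38.p6, the same coordinates as mm10). They were chosen after their values were seen, to set regions of each direction beside a shared one. Capitals mark GAGGAAGT, a PU.1 site, on either strand. The first set holds the promoters of S100a4 (a calcium-binding protein, chr3:90603520-90603819, plus strand), Slamf9 (a SLAM-family receptor, chr1:172475110-172475409, plus strand) and Rftn1 (the lipid-raft protein raftlin, chr17:50190448-50190747, minus strand), whose regions were higher in pDCs and hold the motif within them. The second holds the promoters of H2-M10.2 (an MHC class I-like gene, chr17:36286372-36286671, minus strand), higher in cDCs with the motif 49 bp outside the region, and H2-Eb1 (an MHC class II beta chain, chr17:34305617-34305916, plus strand), higher in cDCs without a match. The last, of Pik3cg (the catalytic subunit of PI3-kinase gamma, chr12:32208610-32208909, minus strand), lies under one of the promoter regions with most counts, which was not called different.
S100a4: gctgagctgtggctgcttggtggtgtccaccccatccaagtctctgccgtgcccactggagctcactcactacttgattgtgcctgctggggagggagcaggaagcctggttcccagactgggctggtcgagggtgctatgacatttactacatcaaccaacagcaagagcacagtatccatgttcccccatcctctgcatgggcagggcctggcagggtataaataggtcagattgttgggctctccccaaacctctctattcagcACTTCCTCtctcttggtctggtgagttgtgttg
Slamf9: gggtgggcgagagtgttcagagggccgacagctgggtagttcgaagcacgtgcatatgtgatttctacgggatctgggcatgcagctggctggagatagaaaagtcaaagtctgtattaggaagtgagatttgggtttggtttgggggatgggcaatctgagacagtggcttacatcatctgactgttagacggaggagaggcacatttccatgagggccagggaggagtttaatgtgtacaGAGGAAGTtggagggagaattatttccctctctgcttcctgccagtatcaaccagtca
Rftn1: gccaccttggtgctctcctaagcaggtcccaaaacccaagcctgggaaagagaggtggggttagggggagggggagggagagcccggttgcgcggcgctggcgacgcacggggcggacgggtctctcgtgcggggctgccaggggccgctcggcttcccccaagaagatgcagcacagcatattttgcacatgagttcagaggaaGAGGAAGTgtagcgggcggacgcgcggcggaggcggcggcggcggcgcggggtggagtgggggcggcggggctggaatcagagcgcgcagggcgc
H2-M10.2: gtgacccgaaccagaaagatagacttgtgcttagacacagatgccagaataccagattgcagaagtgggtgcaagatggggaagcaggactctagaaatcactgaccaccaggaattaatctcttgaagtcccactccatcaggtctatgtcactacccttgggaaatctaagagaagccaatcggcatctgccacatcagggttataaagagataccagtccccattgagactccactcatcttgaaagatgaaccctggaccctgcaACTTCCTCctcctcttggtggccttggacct
H2-Eb1: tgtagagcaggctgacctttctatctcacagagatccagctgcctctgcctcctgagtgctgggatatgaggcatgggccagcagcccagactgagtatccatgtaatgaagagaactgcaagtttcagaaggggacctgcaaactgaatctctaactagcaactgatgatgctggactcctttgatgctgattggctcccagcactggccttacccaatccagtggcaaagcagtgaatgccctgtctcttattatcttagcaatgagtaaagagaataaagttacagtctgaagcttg
Pik3cg: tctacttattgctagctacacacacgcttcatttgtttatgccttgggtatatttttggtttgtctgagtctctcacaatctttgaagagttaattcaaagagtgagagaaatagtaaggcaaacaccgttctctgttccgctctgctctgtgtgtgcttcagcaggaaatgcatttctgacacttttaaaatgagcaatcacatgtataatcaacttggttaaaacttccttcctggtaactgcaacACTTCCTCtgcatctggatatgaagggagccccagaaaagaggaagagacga

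At the S100a4 promoter PU.1 signal was 38.6 and 41.9 CPM in cDCs, and in pDCs it reached 117 and 75.9 CPM. Both pDC libraries lay above both cDC libraries, and the log2 fold was 1.26 ± 0.22 (edgeR adjusted p = 0.0023). At the H2-M10.2 promoter the order was reversed, with 28.3 CPM in both cDC libraries and only 6.59 and 10.2 CPM in pDCs, a log2 fold of -1.76 ± 0.33 (edgeR adjusted p = 0.00307). The H2-Eb1 promoter region was weaker, at 9.59 and 6.42 CPM in cDCs and 1.58 and 1.76 CPM in pDCs (-2.26 ± 0.52, edgeR adjusted p = 0.00995), and its call ended without cDC replicate 1 (-1.94). Slamf9 (0.94 ± 0.22) and Rftn1 (0.86 ± 0.23) lost their calls when cDC replicate 1 was left out (0.88 and 0.82) and when cDC replicate 2 was (1.00 and 0.89). The Pik3cg promoter region carried 118 and 140 CPM in cDCs and 151 and 157 CPM in pDCs (0.26 ± 0.17, edgeR adjusted p = 0.358).

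The PU.1 libraries held 5656601 to 10345955 counts in the windows kept and the input 704301, of which 16.1 to 16.6% and 17.1% lay in dense clusters. pDC replicate 2 stood apart by its share in the windows left out, 18% against 9.15 to 10.5% in the other PU.1 libraries. Replicates of a cell type differed by more than counting error, with a mean chi-square per window of 1.4 for cDCs and 2.16 for pDCs. Over all regions 8.18% were called higher in pDCs and 6.07% in cDCs. Around markers of pDCs, 7 of 34 regions were higher in pDCs and 0 in cDCs. Around markers of cDCs, 11 of 81 were higher in cDCs and 3 in pDCs. Regions around B cell markers were higher in pDCs in 5 of 34 cases and in cDCs in 0, around T and NK cell markers in 3 and 2 of 17, and around macrophage and neutrophil markers in 4 and 3 of 34. These counts are small, and their difference from the share over all regions was not tested. The summed signal around the 6 B cell markers was 317 and 324 CPM in cDCs and 450 and 427 CPM in pDCs. It was also higher in pDCs around T and NK cell markers (135 and 134 against 174 and 158 CPM). The same held for macrophage and neutrophil markers (399 and 409 against 460 and 438 CPM) and pDC markers (636 and 662 against 1091 and 870 CPM). Around cDC markers it was higher in cDCs (1597 and 1549 against 1390 and 1431 CPM in pDCs). PU.1 signal is not expression, and the part of other cells in any result was not tested. Fewer cells of a type and less signal per cell cannot be told apart in bulk chromatin.

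By their input counts, 6 of the 661 clusters stood apart. They carried 2.19 to 3.86 PU.1 counts per input count, near the 2.05 of the repeat windows left out by the rule, whereas the other 655 clusters had at least 21.9 and the median cluster had 57.7. The limit of 10 was chosen after seeing the data. Among them were the clusters with most regions of all, 136 over Mroh2a and the Ugt1a genes on chromosome 1 and 36 over Sfi1 on chromosome 11. The others lay at Tmem267, at LOC100504180 with the Dux-family gene Duxf3, near Zfp982 and near Vmn1r2. All 6 were called higher in pDCs, and pDC replicate 2, the library with the largest repeat share, was the highest of the 4 at 5 of them, LOC100504180 being the exception. Near Vmn1r2, for example, the signal was 205 and 188 CPM in cDCs and 224 and 440 CPM in pDCs, and the call ended without pDC replicate 2 (log2 fold 0.19). These clusters are kept in the counts. They include 3 of the 9 clusters called for pDCs among those with 20 or more regions (Mroh2a, Sfi1 and near Zfp982), and Mroh2a among the clusters with unequal regions. Among the remaining clusters the largest number of regions was 31.

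**Figure D1:**
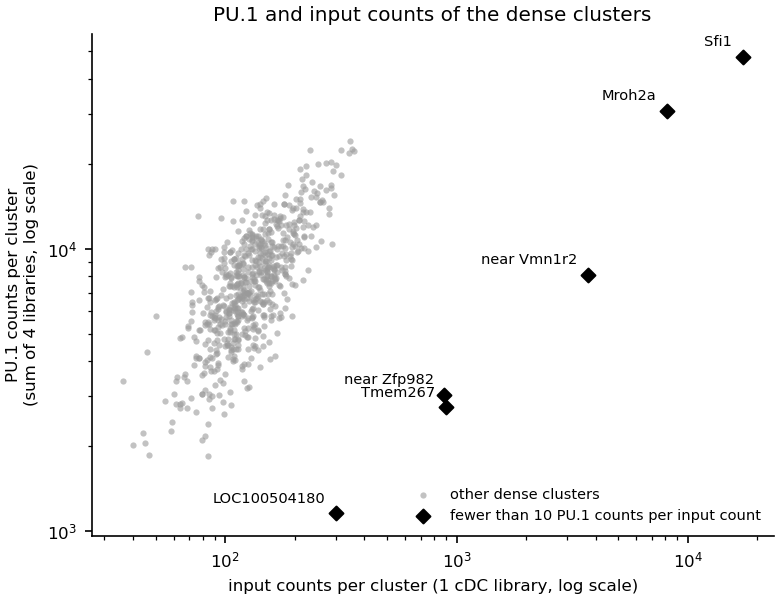
PU.1 counts summed over the 4 libraries against input counts of the single cDC input library for each of the 661 dense clusters, both axes on a log scale. The 6 clusters drawn as diamonds have fewer than 10 PU.1 counts per input count and lie below the others at their input count.

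A dense cluster held 12 regions at the median and was 46.6 kb wide, with 2.66 regions per 10 kb. The whole set covered 33.0 Mb. Clusters with exactly 10 regions numbered 152, beside 223 chains with 9 regions just below the limit, and the median log2 folds of these groups were -0.05 and 0.00. No more than 55 clusters held 20 or more regions. Spans of protein-coding genes overlapped all but 82 clusters: 302 covered 1 gene, 231 covered 2 to 4 and 46 covered 5 or more, 1158 genes in all (5.29% of 21887). The share of regions inside gene spans was 56.7%, beside 56.8% of all regions. Within the typical cluster the strongest region took 29.0% of the PU.1 counts.

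After the 6 clusters above, the cluster with most regions lay over Nfkbil1, Aif1 and Tnf (chromosome 17, 35172451 to 35275510). It held 31 regions, and Tnf encodes tumour necrosis factor. The early-response gene Ier5 and Rin3, an exchange factor for the endocytic GTPase RAB5, had 30 regions each, Lmna with Sema4a had 29, and Ubac2 with the oxysterol receptor gene Gpr183 had 27. Ciita, the master regulator of MHC class II transcription, Cmip, H2-Eb1 and the clock gene Per1 had 26 each. A cluster of 25 regions on chromosome 8 (126778751 to 126853210) covered no protein-coding gene, the nearest being Tomm20. Of these 10, 2 were called different as wholes, Cmip (-0.39 ± 0.11) and H2-Eb1 (-0.39 ± 0.11), both higher in cDCs. Leaving out cDC replicate 1 ended both calls (-0.33 and -0.34), as did leaving out cDC replicate 2 (-0.45 and -0.43).

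As whole units, most dense clusters were not called different between cDCs and pDCs. Summed over the cluster, PU.1 signal was higher in pDCs at 60 clusters (9.08%) and higher in cDCs at 64 (9.68%), while 537 were not called (edgeR quasi-likelihood test, adjusted p below 0.05). The share called was 18.8%, near the 18.2% of all 27264 chains tested (11.2% higher in pDCs and 7.04% in cDCs). Without the 6 input-like clusters, 54 and 64 were called. The differences were small: 615 of 661 clusters differed by less than 1.5-fold, and 2 exceeded 2-fold, Dntt and the input-like LOC100504180. In 208 clusters both pDC libraries lay above both cDC libraries, in 228 both lay below, and in 225 the groups overlapped. That count was not made for the other chains, so no background share stands beside it and it is only a description. The split of directions depended on scaling, at 54 to 92 with library-size scaling and 38 to 80 by DESeq2. With library sizes from the repeat windows 0 clusters were called in either direction (0 and 10 at an unadjusted p below 0.05), and the median log2 fold moved from 0.07 to -0.46 for all chains and from 0.01 to -0.50 for dense clusters. The counts also turned on single libraries: pDC to cDC calls were 8 to 5 without cDC replicate 1, 13 to 13 without cDC replicate 2, 70 to 117 without pDC replicate 1 and 189 to 134 without pDC replicate 2.

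The median absolute log2 fold of a chain was 0.54 for single regions, 0.39 for chains of 2 to 4 regions, 0.25 for 5 to 9 and 0.18 for dense clusters. For the separate regions within these classes it was 0.54, 0.51, 0.50 and 0.49. Chains differing by more than 2-fold made up 25.6% of single regions and 0.303% of dense clusters, the same 2 clusters. A sum over many regions has less counting error than a single region, and the part of that in the trend was not tested.

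**Figure D2:**
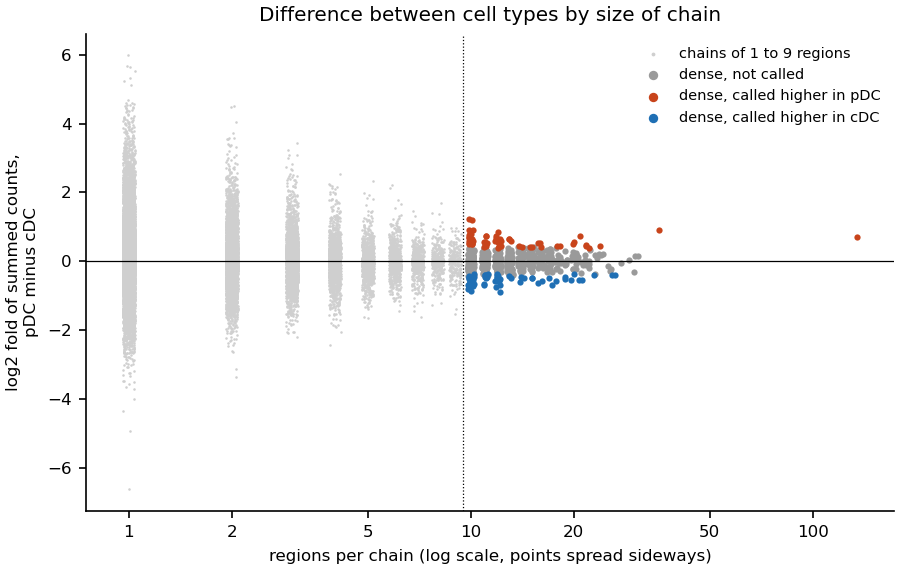
Log2 fold of summed PU.1 counts (pDC minus cDC) of every tested chain against its number of regions on a log scale, with points spread sideways for legibility. The dotted line is the limit of 10 regions. Dense clusters lie between -0.88 and 1.23 and are coloured by their call.

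The largest difference was at Dntt, the template-independent DNA polymerase of lymphoid progenitors, which is also known from pDCs. Its cluster lay on chromosome 19 between 40994051 and 41051910, reached into the neighbouring gene of the B cell adaptor Blnk, and held 10 regions, of which 3 lay in gene spans. The whole cluster carried 114 and 115 CPM in cDCs, set against 298 and 240 CPM in pDCs. The pDC libraries were thus 2.35-fold higher (log2 fold 1.23 ± 0.14, edgeR adjusted p = 0.00015), with no overlap. Dntt was also the only cluster outside the input-like ones called against a minimum fold of 1.5. All 10 regions leaned to pDCs and 7 were called. The region with the smallest p (41026551 to 41026810, 2.46 kb outside the Dntt span) had 4.5 and 3.87 CPM in cDCs and 30.2 and 27.1 CPM in pDCs, a log2 fold of 2.77 ± 0.34 (edgeR adjusted p = 0.000299). The strongest region (40995601 to 40995960, 1.38 kb outside the Blnk span) had 34.9 and 31.4 CPM in cDCs and 118 and 68.9 CPM in pDCs, at 1.5 ± 0.25 (edgeR adjusted p = 0.00136).

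On the pDC side Nrxn2, Ccl4, Inpp4a, Lif and a cluster near Foxn3 followed, with no overlap between the cell types. Nrxn2, a neurexin known from synapses, had 85.1 and 94.4 CPM in cDCs and 193 and 146 CPM in pDCs, and its log2 fold was 0.92 ± 0.16. One of its regions (chromosome 19, 6492551 to 6492810) rose from 2.8 and 6.98 CPM in cDCs to 39.7 and 26.4 CPM in pDCs, at 2.75 ± 0.41 (edgeR adjusted p = 0.000789). The cluster of the chemokine genes Ccl4 and Ccl3 had 93.9 and 91.5 CPM in cDCs and 199 and 146 CPM in pDCs (0.90 ± 0.16). Inpp4a, an inositol polyphosphate 4-phosphatase, had 221 and 236 CPM in cDCs and 470 and 349 CPM in pDCs (0.84 ± 0.14). Lif with Osm, a pair of IL-6 family cytokine genes, lay at 0.79 ± 0.15, and a cluster of 10 regions in no gene near Foxn3 lay at 0.78 ± 0.15. The edgeR adjusted p of these 5 clusters was 0.00146 to 0.00374. LOC100504180 (1.21), Sfi1 (0.90), near Vmn1r2 (0.76) and Tmem267 (0.74) complete the 10 largest, and all 4 are input-like. Without cDC replicate 1 the calls of LOC100504180 (1.08), Lif (0.76), near Foxn3 (0.79) and Tmem267 (0.71) ended, and without cDC replicate 2 those of near Foxn3 (0.78) and Tmem267 (0.76).

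On the cDC side the largest difference lay in a cluster of 12 regions outside any gene on chromosome 10 (67679551 to 67715910), where Ado was the nearest gene at 146 kb from the strongest region. It carried 179 and 180 CPM in cDCs and 79.7 and 116 CPM in pDCs, a log2 fold of -0.88 ± 0.17 (edgeR adjusted p = 0.00309). Dapk2, a calcium- and calmodulin-regulated death-associated kinase, had 201 and 191 CPM in cDCs and 93 and 125 CPM in pDCs (-0.85 ± 0.15, edgeR adjusted p = 0.0022). Itgae, the CD103 integrin chain of a cDC subset, had 170 and 156 CPM in cDCs and 86 and 99.3 CPM in pDCs (-0.81 ± 0.14, edgeR adjusted p = 0.00193), and 4 of its 10 regions were higher in cDCs. In each of these clusters both cDC libraries lay above both pDC libraries. Tnfsf18, the ligand of the costimulatory receptor GITR, lay at -0.75 ± 0.18, with pDC libraries as far apart as 96.2 and 158 CPM. Prss22, a serine protease (-0.75 ± 0.14), Lrrk2, a leucine-rich repeat kinase (-0.73 ± 0.14), Acoxl (-0.72 ± 0.16), Chsy1, a chondroitin sulfate synthase (-0.72 ± 0.15), Arrb2 with Cxcl16 (-0.70 ± 0.14) and Pik3r6 with Pik3r5, regulatory subunits of PI3-kinase gamma (-0.69 ± 0.14), followed. Without cDC replicate 1 the calls of Prss22 (-0.61), Lrrk2 (-0.69), Acoxl (-0.71), Chsy1 (-0.74) and Arrb2 (-0.59) ended, and without cDC replicate 2 those of Chsy1 (-0.70) and Pik3r6 (-0.65).

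**Figure D3:**
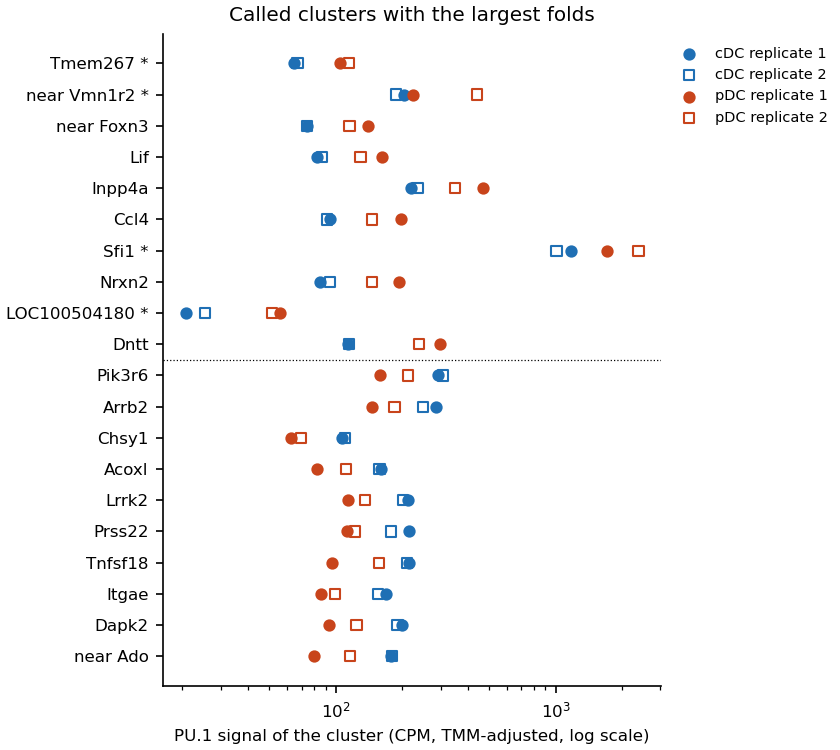
PU.1 signal of the called clusters with the largest folds in CPM on a log scale, pDC-higher above the dotted line and cDC-higher below it. Each point is 1 library, and an asterisk marks a cluster with fewer than 10 PU.1 counts per input count. In every row shown the 2 libraries of one cell type lie above the 2 of the other.

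Within clusters, the test asked whether all regions shared one ratio between the cell types. In 455 of the 661 clusters (68.8%) the regions differed in their log2 fold by more than the spread between libraries (F test of edgeR's diffSpliceDGE, adjusted p below 0.05). Over all 13161 chains with 2 or more tested regions 24% passed, 16.6% with 2 to 4 regions and 39.9% with 5 to 9. The power of this test grows with the number of regions, and the part of that in the share was not tested. With library-size scaling the count was 445, and scaling by the repeat windows was not run for this test. Of the 455 clusters, 366 were not called as wholes, a share near that of all dense clusters (537 of 661). The count fell to a small part when either cDC library was left out, but not when either pDC library was. Without a cDC library, the spread between replicates came from the pDC pair alone, and the part of that in the fall was not tested.

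Single regions of dense clusters were called at a share near the background. Of 8438 tested, 562 (6.66%) were higher in pDCs and 565 (6.7%) in cDCs, 13.4% beside 14.2% of all 63769 regions (8.18% higher in pDCs and 6.07% in cDCs). With library sizes from the repeat windows the split was 85 to 510. The counts fell to 180 and 161 without cDC replicate 1 and to 224 and 200 without cDC replicate 2, and rose to 1245 and 1369 without pDC replicate 2. Called regions of both directions occurred in 150 clusters, of which 137 were not called as wholes, beside 537 of all 661. In 185 clusters the called regions were all higher in pDCs, in 202 all higher in cDCs, and 124 clusters held none. All tested regions had the same sign in 15 clusters. Such counts depend on the number of regions in a cluster and were not made for other chains. Across 7434 pairs of neighbouring regions the log2 folds had a Pearson's correlation of 0.198, given as a description since neighbours share libraries and scaling.

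Rin3, Ubac2, the cluster near Tomm20, Mcl1, Arap1, Sirt2, Ccnd3 and Banp had the smallest p in the test of unequal regions. The intergenic cluster near Tomm20 showed the smallest of all (edgeR diffSpliceDGE adjusted p = 7.83e-10), although its sum was 695 and 664 CPM in cDCs and 681 and 546 CPM in pDCs (log2 fold -0.15 ± 0.12). It held 3 regions higher in pDCs and 5 higher in cDCs. At 126819251 to 126819510, 111 kb from Tomm20, the signal was 12.7 and 12.6 CPM in cDCs and 46.2 and 38.0 CPM in pDCs (1.73 ± 0.27, edgeR adjusted p = 0.00101). Another region higher in pDCs (126847501 to 126847960) had 34.4 and 32.3 CPM in cDCs and 87 and 64 CPM in pDCs (1.18 ± 0.22). The first region of the cluster (126778751 to 126779010) went the other way, with 37.5 and 25.4 CPM in cDCs and 10.2 and 5.62 CPM in pDCs (-1.98 ± 0.36, edgeR adjusted p = 0.00246).

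At Rin3 the cluster spanned 102 kb of chromosome 12, and 29 of its 30 regions lay in the gene span. Its sum was 651 and 631 CPM in cDCs and 513 and 533 CPM in pDCs (-0.29 ± 0.10, edgeR adjusted p = 0.0638, and 2.08e-06 for unequal regions). The strongest region, 0.33 kb outside the span, had 75.4 and 81.8 CPM in cDCs with 66.5 and 64.8 CPM in pDCs and was not called. Deeper in the gene, a region at 102337651 to 102337910 had 27.3 and 35.1 CPM in cDCs and 2.44 and 8.79 CPM in pDCs (-2.50 ± 0.45, edgeR adjusted p = 0.00231). The last region (102383301 to 102383610) was the only one higher in pDCs, at 26.5 and 31.1 CPM in cDCs and 63.8 and 50.8 CPM in pDCs (0.99 ± 0.23, edgeR adjusted p = 0.0101). That last call ended without cDC replicate 1 (0.88) and without cDC replicate 2 (1.11), and without the latter the test of unequal regions missed the threshold (edgeR adjusted p = 0.0566).

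Ciita covered a pattern that leaned to cDCs without being called as a whole, at 726 and 711 CPM in cDCs and 608 and 618 CPM in pDCs (-0.23 ± 0.10, edgeR adjusted p = 0.134). Of 26 regions, 5 were higher in cDCs and 1 in pDCs. Within the Ciita span a region at 10479651 to 10480210 on chromosome 16 had 56.7 and 45.2 CPM in cDCs and 14.2 and 21.8 CPM in pDCs (-1.51 ± 0.27, edgeR adjusted p = 0.00247). The region with most counts lay in the neighbouring Nubp1 span and was not called (-0.11 ± 0.19). In the test of unequal regions the adjusted p of this cluster was 4.76e-06, but 0.0973 without cDC replicate 1 and 0.0556 without cDC replicate 2.

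**Figure D4:**
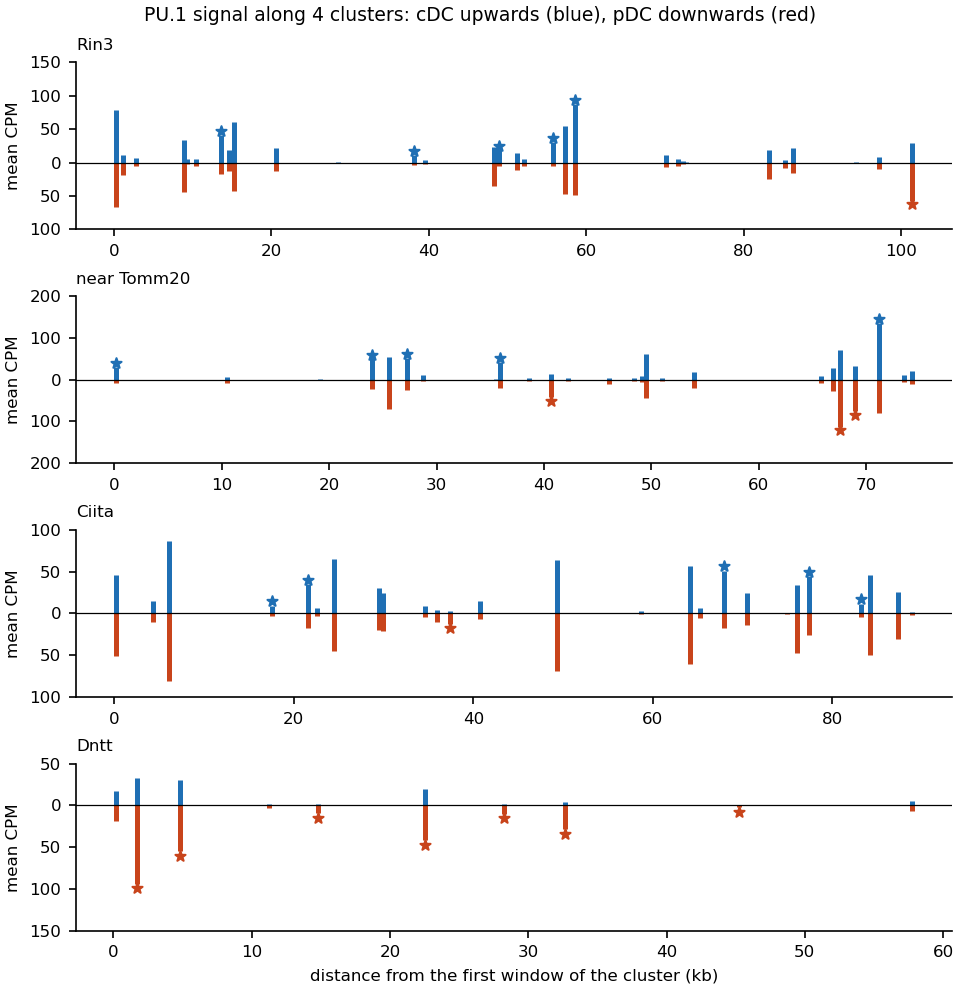
Mean PU.1 signal in CPM (mean of 2 libraries) of each region along the clusters at Rin3, near Tomm20, at Ciita and at Dntt, with distance from the cluster's first window in kb. Blue bars point up for cDCs, red bars point down for pDCs, and a star marks the higher cell type at a called region. At Dntt all 7 stars are on the pDC side, whereas the other 3 clusters hold stars of both kinds.

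In the remaining unequal clusters the regions with the smallest p differed far more than the sums. Both the clusters and the regions were chosen by small p, so this contrast is only a description. Arap1, a GTPase-activating protein for ARF proteins, was higher in pDCs as a whole (0.43 ± 0.14, but -0.0382 scaled by repeat windows), and one of its regions (chromosome 7, 101379751 to 101380060) had 9.59 and 9.53 CPM in cDCs and 73.5 and 53.4 CPM in pDCs, at 2.73 ± 0.26 (edgeR adjusted p = 7.28e-05). Sirt2, a NAD-dependent deacetylase, shares its cluster with Hnrnpl, where a region (28821151 to 28821410) had 1.1 and 2.55 CPM in cDCs and 32.7 and 22 CPM in pDCs, at 3.89 ± 0.44 (edgeR adjusted p = 0.00017). The sum of the Sirt2 cluster lay at 0.17 ± 0.13.

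Mcl1, an anti-apoptotic BCL2 relative needed for the survival of many blood cells, had a cluster with 4 regions higher in pDCs and 1 in cDCs, and a sum at 0.09 ± 0.10. A region 18.4 kb outside Adamtsl4 (chromosome 3, 95706351 to 95706610) had 5.29 and 5.19 CPM in cDCs and 34.3 and 15.5 CPM in pDCs, at 2.25 ± 0.40 (edgeR adjusted p = 0.00237). A region 0.634 kb outside Ensa in the same cluster was higher in cDCs, with 40.2 and 44.6 CPM against 5.88 and 15.3 CPM in pDCs (-2.02 ± 0.36). At Ubac2, 1 region was higher in pDCs (121969501 to 121969760, 2.39 ± 0.39), 3 were higher in cDCs, and the sum lay at -0.05 ± 0.10. In both clusters regions of either direction stood beside a sum that was not called.

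Ccnd3, encoding cyclin D3, held 4 regions higher in pDCs and none higher in cDCs. Its clearest region (chromosome 17, 47556751 to 47556910) had 1.2 and 1.7 CPM in cDCs and 13.5 and 9.84 CPM in pDCs, at 3.0 ± 0.49 (edgeR adjusted p = 0.00139), and the sum lay at 0.39 ± 0.13 (edgeR adjusted p = 0.0517). Banp, a nuclear-matrix protein, had 3 regions higher in pDCs and 1 in cDCs. The clearest Banp region lay at 122021901 to 122022110 on chromosome 8, with 1.8 and 2.17 CPM in cDCs and 27.1 and 13.2 CPM in pDCs (3.34 ± 0.46, edgeR adjusted p = 0.000522). The whole-cluster call of Arap1 ended without cDC replicate 1 (0.39), cDC replicate 2 (0.47) and pDC replicate 1 (0.22). For Ubac2 the test of unequal regions gave adjusted p of 0.0869 and 0.0624 without cDC replicates 1 and 2.

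**Figure D5:**
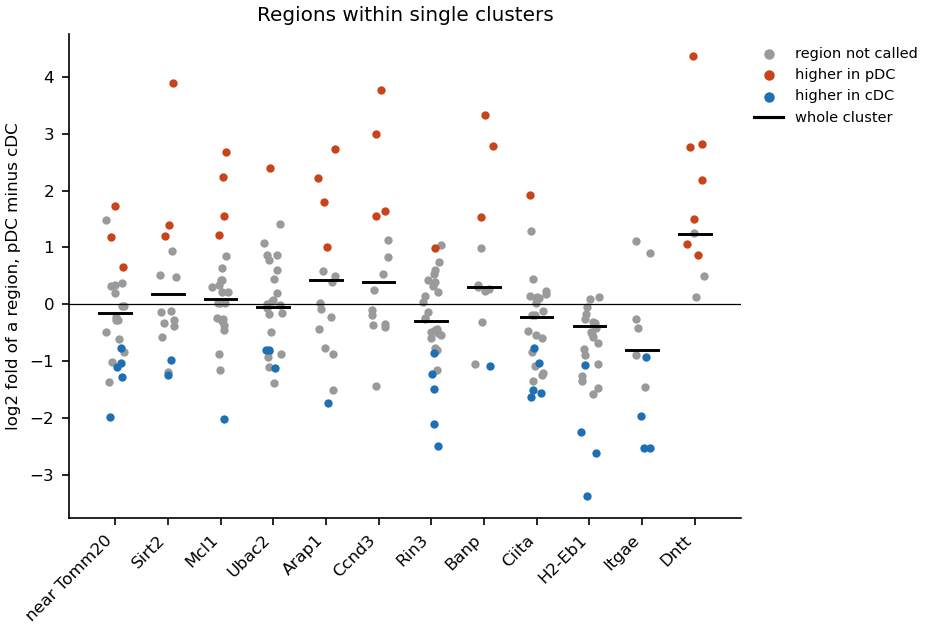
Log2 fold (pDC minus cDC) of each tested region in the 8 clusters with the smallest p for unequal regions and in those of Ciita, H2-Eb1, Itgae and Dntt, coloured by call, with a bar for the whole cluster. Regions spread over several log2 units around bars that lie between -0.81 and 1.23.

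Gene lists for dendritic and blood cell functions were then read against the clusters, with 18.8% of clusters called and a median log2 fold of 0.01 over all 661 as the background. The lists and their members were chosen with earlier results of these data known, so their shares and directions are given as a description. Among 34 regulators of dendritic cell development, 10 genes lay in 12 dense clusters, and 2 of these were called for pDCs, 3 for cDCs and 7 for neither. The pDC-higher ones were those of Spib, a relative of PU.1 used in pDCs (cluster Pold1, 0.64 ± 0.14), and the corepressor Cbfa2t3 (0.55 ± 0.15). A region in the Pold1 span (chromosome 7, 44534201 to 44534610) had 43.5 and 62.7 CPM in cDCs and 167 and 112 CPM in pDCs (1.4 ± 0.23, edgeR adjusted p = 0.00142). Higher in cDCs were the clusters of Batf3, an AP-1 factor of cross-presenting cDCs (cluster Nsl1, -0.50 ± 0.12), of the repressor Bcl6 (-0.57 ± 0.12) and the second of 2 clusters over the ETS repressor Etv6 (-0.45 ± 0.12). Near Bcl6 a region 34.7 kb outside the gene (chromosome 16, 24023601 to 24023860) had 30.2 and 20.4 CPM in cDCs and 1.0 and 5.8 CPM in pDCs (-2.94 ± 0.54, edgeR adjusted p = 0.0026), and by DESeq2 the call ended (-2.92, adjusted p = 0.0523). Without cDC replicate 1 the calls of Pold1 (0.54), Cbfa2t3 (0.46), Nsl1 (-0.46), Bcl6 (-0.62) and Etv6 (-0.44) ended, and without cDC replicate 2 those of Cbfa2t3 (0.64), Nsl1 (-0.54), Bcl6 (-0.52) and Etv6 (-0.46).

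Irf8 and Spi1, named here after their values were seen, were not called as wholes. Irf8, the interferon regulatory factor that pairs with PU.1, had 352 and 325 CPM in cDCs and 506 and 385 CPM in pDCs (0.40 ± 0.13, edgeR adjusted p = 0.054). Among its regions 4 were called for pDCs and 1 for cDCs. The Spi1 cluster, which covers the gene of PU.1 itself, had 375 and 389 CPM in cDCs and 444 and 374 CPM in pDCs, so the groups overlapped. It had the most PU.1 counts per input count of all clusters, 172.

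The few called clusters of identity genes, on lists chosen with earlier results known, were higher in the matching cell type. Over all dense clusters 9.68% were called for cDCs and 9.08% for pDCs, and the difference from these shares was not tested. For cDC identity, 7 of 21 genes lay in 6 clusters, 3 of them higher in cDCs (Itgae, H2-Eb1 and Nsl1 with Batf3) and 3 not called, with a median log2 fold of -0.36. For pDC identity, 3 of 23 genes lay in 3 clusters, and 2 of these, Dntt and Pold1, were higher in pDCs. The third, Lair1, was not called and leaned to cDCs (-0.16 ± 0.13), with both cDC libraries above both pDC libraries. The spans of Batf3 and Spib held 1 region each of their clusters. Among 15 genes of MHC class II presentation, 5 lay in 4 clusters, of which that of H2-Eb1 and H2-Aa was higher in cDCs, while Ciita (-0.23), H2-DMb1 (cluster Tap1, -0.25) and Cd74 (cluster Tcof1, 0.06) were not called. A region within H2-Eb1 (chromosome 17, 34308201 to 34308410) had 11.0 and 11.4 CPM in cDCs and 0 and 2.28 CPM in pDCs (-3.37 ± 0.76, edgeR adjusted p = 0.00896). By DESeq2 that call ended (-3.33, adjusted p = 0.395). The strongest region of that cluster, 5.63 kb outside H2-Aa, had 168 and 152 CPM in cDCs and 122 and 133 CPM in pDCs and was not called (-0.33 ± 0.17). The calls of H2-Eb1 and Nsl1 ended without either cDC replicate (H2-Eb1 at -0.34 and -0.43), and that of Pold1 without cDC replicate 1, as above.

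Of 28 genes of Toll-like receptor and interferon sensing, 6 lay in 6 clusters, 1 higher in cDCs and 5 not called. That was the cluster of Tlr1, a receptor for bacterial lipopeptides (-0.69 ± 0.14), where 4 of 10 regions were higher in cDCs. No region of it lay inside a gene span. Near Ifnar1, a chain of the type I interferon receptor, the sum lay at 0.05 ± 0.13 but a region 22.1 kb outside Il10rb (chromosome 16, 91447951 to 91448160) had 0.999 and 2.45 CPM in cDCs and 31.8 and 13.9 CPM in pDCs (3.71 ± 0.52, edgeR adjusted p = 0.000524). Around Unc93b1, the chaperone of endosomal Toll-like receptors, 3 of 12 regions were higher in pDCs, among them one in the span of Tcirg1 (3903001 to 3903210, 3.15 ± 0.57). The Tlr1 call ended without cDC replicate 1 (-0.69) and cDC replicate 2 (-0.68).

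Receptor genes for cytokines and chemokines lay in dense clusters in 10 of 25 cases, with 3 clusters called for pDCs, 1 for cDCs and 6 for neither. Cxcr4, the receptor for CXCL12, had 193 and 209 CPM in cDCs and 350 and 277 CPM in pDCs (0.64 ± 0.14, edgeR adjusted p = 0.00551). Csf2rb, the shared beta chain of the GM-CSF, IL-3 and IL-5 receptors, lay at 0.53 ± 0.14, Il21r at 0.40 ± 0.13 (-0.075 scaled by repeat windows) and Ifngr1 at -0.47 ± 0.15. Within Csf2rb a region (chromosome 15, 78333101 to 78333310) had 1.1 and 1.32 CPM in cDCs and 24.2 and 13.7 CPM in pDCs, at 3.96 ± 0.48 (edgeR adjusted p = 0.000247). Csf2rb was also the only called cluster among those of 11 known PU.1 targets, out of 26 on that list, and the 10 others, from Ciita and Cd14 (cluster Tmco6) to Ptprc and Csf1r, lay between -0.23 and 0.31. The near-identical neighbour Csf2rb2 shares the cluster, so reads could be split between the copies. Without cDC replicate 1 the calls of Cxcr4 (0.59), Csf2rb (0.51), Il21r (0.38) and Ifngr1 (-0.35) ended, without cDC replicate 2 those of Csf2rb (0.55), Il21r (0.42) and Ifngr1 (-0.58), and without pDC replicate 1 that of Il21r (0.23).

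Among these lists, those of signalling and cytoskeletal genes had the largest share in dense clusters. As their members were chosen with earlier results known, this ranking is no test. Of 28 genes for the actin cytoskeleton and adhesion 16 lay in dense clusters (57.1%), and of 27 haematopoietic kinase, phosphatase and lipid signalling genes 14 did (51.9%), beside 5.29% of all genes. The median gene span on these lists was 65.3 and 66.2 kb, beside 17.2 kb for all genes, and the part of gene length in the shares was not tested. With 18.8% of all dense clusters called as the background, 3 of 17 clusters of the first list were called, a share near it. Among these 1 was higher in pDCs, that of the haematopoietic GTPase Rac2 (cluster Cyth4, 0.43 ± 0.13, but -0.0421 scaled by repeat windows), and 2 in cDCs, those of the exchange factor Vav3 (-0.37 ± 0.12) and of Arhgap26 (-0.50 ± 0.14). Of 14 clusters of the second list only that of Pik3r5 was called (-0.69 ± 0.14), beside the same 18.8%. Prkcd fell just short of a call (0.35 ± 0.11, edgeR adjusted p = 0.0507). Inpp5d, encoding the phosphatase SHIP1 with 19 regions, lay at -0.02 ± 0.11 and Lyn and Ptpn22 at -0.02 and 0.09. The calls of Cyth4 (0.36 and 0.51), Vav3 (-0.31 and -0.42) and Arhgap26 (-0.47 and -0.52) ended without cDC replicate 1 and without cDC replicate 2. That of Pik3r5 (cluster Pik3r6, -0.65) ended without cDC replicate 2.

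Control lists were covered to different extents, beside 5.29% of all genes. None of 15 T and NK cell markers and none of 18 non-haematopoietic genes was covered, and 2 of 16 macrophage and neutrophil markers were, Ltf and Csf1r, neither of them called. Of 15 B cell markers, 2 were covered (13.3%): Blnk in the Dntt cluster, and Bach2, a repressor of plasma cell fate, whose cluster was higher in cDCs (-0.57 ± 0.13). The strongest Bach2 region (chromosome 4, 32401451 to 32401810) had 51.9 and 47.1 CPM in cDCs and 2.29 and 10.9 CPM in pDCs (-2.94 ± 0.45, edgeR adjusted p = 0.000908). Of 15 housekeeping genes 4 were covered (26.7%), and 2 of their clusters were higher in pDCs, those of Actb (0.60 ± 0.14) and of Rpl13a (cluster Rcn3, 0.46 ± 0.14, but -0.061 scaled by repeat windows). At Actb, beta-actin, a region 0.975 kb outside the gene had 151 and 172 CPM in cDCs and 381 and 265 CPM in pDCs (1.00 ± 0.19, edgeR adjusted p = 0.00294). The calls of Bach2 (-0.52), Actb (0.53) and Rcn3 (0.41) ended without cDC replicate 1, and those of Bach2 (-0.61) and Rcn3 (0.51) without cDC replicate 2.

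Few promoter regions of dense clusters were called. Of 458 tested regions at a promoter, 11 were higher in pDCs and 9 in cDCs (4.37%), against 13.9% of 7779 regions away from promoters, with median absolute log2 folds of 0.31 and 0.50. Over all regions of the genome the shares were 2.90 and 15.1%, and neither difference in share was tested. One of the 11 lay at Ugt1a1 in the input-like Mroh2a cluster. Of the 11 pDC-higher regions 4 lay at a promoter with the PU.1 motif, those of S100a4, Slamf9, Rftn1 and Dgkz, a diacylglycerol kinase, and 7 did not, at Sla2, Rassf1, Ugt1a1, Pstpip1, Sema4d, Ercc1 and Bco2 with Il18. Of the 9 cDC-higher ones 1 did, that of H2-M10.2, and the other 8, among them Slc11a1, Nlrp3, Ptpn22, Il1a and H2-Eb1, did not. These counts are a description, and their difference was not tested. At Slc11a1, the metal transporter NRAMP1 of phagosomes, the signal was 27.3 and 22.5 CPM in cDCs and 8.46 and 7.38 CPM in pDCs (-1.65 ± 0.33, edgeR adjusted p = 0.00452). At Nlrp3, the inflammasome sensor, it was 75.1 and 62.7 CPM in cDCs and 26.7 and 48.3 CPM in pDCs (-0.88 ± 0.26). The genes named here were chosen after their values were seen. The calls of Dgkz (0.76 and 0.71) and of Bco2 with Il18 (0.57 and 0.53) also ended by DESeq2 and with library-size scaling. Among the calls that ended without cDC replicate 1 were Dgkz (0.53), Bco2 (0.51), Ugt1a1 (2.23), Slc11a1 (-1.5), Nlrp3 (-0.74), Ptpn22 (-1.05) and Il1a (-1.02). Among those that ended without cDC replicate 2 were Dgkz (1.06), Bco2 (0.67), Ugt1a1 (2.15), Rassf1 (1.51) and Nlrp3 (-1.01). Without pDC replicate 1 that of Nlrp3 (-0.51) ended.

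The PU.1 motif was counted in promoters as a description. GAGGAAGT, on either strand, was present in 8.88% of 518 promoters of dense clusters that held a region and in 1.86% of 430 that held none. Outside dense clusters it was present in 6.84% of 4825 promoters with a region, and in 3.13% of all 21263 promoters. The composite ETS and IRF motif, GGAA followed by GAAA after any 2 bases on either strand, was present in 2.51% of dense-cluster promoters with a region and 1.63% of those without, beside 2.53% of all. The AP-1 motif TGANTCA was present in 4.25% and 5.58%, beside 6.99% of all, and the E box CANNTG in 68.3% and 65.8%, beside 69.0%. Motifs of sites away from promoters were not analysed here.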

How the data were processed

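The deposited values are read counts per 10 bp window on a 50 bp grid for 4 PU.1 libraries and 1 input library, as the authors made them. Reads were aligned to mm10, and Subread 1.4.4 is named, per the submitters' processing notes. How windows were chosen, read extension and how duplicates were handled are not stated in the labels or headers. A read can fall in several windows, so window totals (2776490 to 11388554) are not read depth, and the true depth is unknown.

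From these counts, 146 of 329996 windows with 1000 or more input counts were left out, which set aside 74.6% of the input counts. Regions were joined at gaps of at most 100 bp and chained as described. Counts summed per chain and per region were tested over the whole table with edgeR 4.0.16 in R 4.3.3 (quasi-likelihood, TMM from windows, minimum count of 10, Benjamini-Hochberg adjustment at 0.05, cell type as the only term). Unequal regions were tested with diffSpliceDGE. The code was tested on simulated data. The labels call the libraries biological replicates without giving their cultures, so p-values measure the spread between 2 libraries a group, and an exact permutation test of 2 against 2 cannot go below 0.333. Over 63769 regions, deviations of same-numbered libraries correlated at 0.0177, and the main fits were made without pairing. Whether same-numbered libraries shared a culture or preparation was not tested. DESeq2 1.42.0, other scalings, filters and distances were alternatives.

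Genes are RefSeq spans without exons. The 14 gene lists, the rule and the members were chosen with earlier results of these data known. Clusters are named by the covered gene with most regions. The text names from the 12 clusters with most regions, the 10 called ones with the largest fold in each direction, the 8 with the smallest p for unequal regions and, for each list, the called clusters and the 3 with most regions, and says where others were chosen after their values were seen. Within a cluster it names the region with most counts and those with the smallest p.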

Additional observations from a re-analysis of the deposited data

Results flagged for a closer look

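Of the 661 dense clusters, 6 stood out by signal in the input library. Its counts set which windows were kept but did not enter the fits between cell types. The limit was fewer than 10 PU.1 counts per input count and was chosen after seeing the data. Input counts were 8114 in the Mroh2a cluster, 17282 in Sfi1, 3702 near Vmn1r2, 897 in Tmem267, 883 near Zfp982 and 300 in LOC100504180. Together these clusters held 25.9% of the input counts in dense clusters. The input came from cDCs alone, so no input value exists for pDCs, and the part of input signal in their higher pDC values was not tested.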

How the results depend on the processing

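Counts of clusters higher in pDCs and in cDCs, 60 and 64 here, were 54 and 92 with library-size scaling, 38 and 80 by DESeq2, 2 and 0 against a minimum fold of 1.5 (9 and 4 at an unadjusted p below 0.05 in edgeR's glmTreat) and 0 and 0 with library sizes from the repeat windows. Leaving out 1 library gave 8 to 189 and 5 to 134. Other definitions gave 7 and 2 of 71 clusters (gaps of at most 5 kb), 177 and 169 of 1615 (25 kb), 349 and 373 of 3352 (5 or more regions) and 9 and 7 of 55 (20 or more). Regions, 562 and 565 here, numbered 85 and 510 with the repeat windows, 238 and 197 against the minimum fold, and 180 to 1245 and 161 to 1369 with 1 library left out. Unequal clusters, 455 here, ranged from 34 to 625 with 1 library left out. With a replicate block the counts were 76 and 73 clusters, 602 and 676 regions and 406 unequal clusters, and the block ended 0 of the 40 calls of named clusters and 1 of the 156 of named regions. By DESeq2 13 of 152 region calls with an adjusted p ended.

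Of those 40 calls, 28 and 20 ended when the first or second cDC library was left out, 2 and 1 when the first or second pDC library was, 5 by DESeq2, 2 with library-size scaling, 38 against the minimum fold and 40 with the repeat windows. The repeat windows moved all folds down, and these values changed sign: Cyth4 -0.0421, Arap1 -0.0382, Il21r -0.075 and Rcn3 -0.061 among called clusters, and Nfkbil1 -0.31, Ier5 -0.32, Lmna -0.46, Mcl1 -0.41, BC049352 -0.30, Ppp1r18 -0.36, Arhgap25 -0.43, Map4k4 -0.52, Tcof1 -0.45, Ccr6 -0.36, Nfkbie -0.42, Sirt2 -0.32, Ccnd3 -0.11, Csf1r -0.17, Ifnar1 -0.44, Ube2d2a -0.32, Aldh3b1 -0.17 and Banp -0.19 among uncalled ones. Uncalled folds near 0 also changed sign with library-size scaling (Lmna -0.0201, Map4k4 -0.0437, Ifnar1 -0.0108), by DESeq2 (Lmna -0.0317, Map4k4 -0.0578, Tcof1 -0.00875, Nfkbie -0.00743, Ifnar1 -0.0212). With 1 library left out, the fold ranged over 0 for Nfkbil1 -0.0185 to 0.324, Lmna -0.0485 to 0.113, near Tomm20 -0.315 to 0.00351, Inpp5d -0.132 to 0.0832, Arhgap25 -0.00975 to 0.142, Map4k4 -0.0559 to 0.0752, Tcof1 -0.00506 to 0.118, Dock10 -0.265 to 0.056, Flt3 -0.18 to 0.0117, Nfkbie -0.0932 to 0.196, Fyco1 -0.304 to 0.0645 and Ifnar1 -0.105 to 0.181. The cause of these changes was not tested.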
